A study of Mus musculus with 8 samples.

Results

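Collagen genes were taken as the protein-coding genes of mm10 whose symbol is Col followed by a number, the letter a and a number. The annotation held 44 of them among 21887 protein-coding genes. They fell into 11 fibrillar genes (types I, II, III, V, XI, XXIV and XXVII), 6 basement membrane genes (type IV, Col4a1 to Col4a6) and 27 others. The data were 5 lists of accessible chromatin from ATAC-seq, an assay in which a transposase cuts open DNA, made from primary liver cells of a mouse model of hepatocellular carcinoma with a triple knockout of the Rb family of cell-cycle repressors. The cells were sorted as YFP-positive, which marks Cre recombination of floxed alleles, and divided by the surface proteins Thy1 and EpCAM. The labels name 8 samples in 5 groups: EpCAM-high CK19 (2 samples), EpCAM-high Sox9 (1 sample), Thy1-positive CK19 (2 samples), Thy1-positive Sox9 (1 sample) and EpCAM-negative (2 samples). All groups carry the knockout, so there is no unrecombined control, and no treatment was given. The individual alleles, the promoter that drove Cre, the meaning of CK19 and Sox9 in the names, the ages, and which samples came from whole liver and which from lesions are not stated. The lists are named EpCAM-high (CK19 and Sox9), Prog-like (CK19 and Sox9) and Tumor (Sox9). Names of sample groups are borne by the EpCAM-high lists, while the other 3 could be tied to no group and are used under the authors' names.

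Collagens are secreted or membrane-bound proteins in which alpha chains with a glycine repeat wind around each other into a rigid helix. Fibrillar collagens assemble into the banded fibres of scar and tumour stroma, and in the liver they are known chiefly as products of activated stellate cells and portal fibroblasts. Type IV collagen forms the sheet-like network of basement membranes under epithelia, including that of bile ducts, and around vessels. The other families bind to fibrils, span the cell membrane, form beaded filaments, or carry an endostatin domain, as types XV and XVIII do.

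The lists held 39644 (Tumor Sox9) to 71375 (Prog-like CK19) peaks, from an unknown number of reads. As each condition had a single list, neither a replicate error nor a test could be had, and the intervals given are exact Clopper-Pearson 95% intervals that cover counting error only. Because a longer list holds more peaks, the counts at gene ends, start sites, loci and merged regions were repeated after every list was shortened to its 39644 peaks with the highest −log10 p ("equal length"). That step kept peaks with a −log10 p of at least 27.9 (CK19) and 21.9 (Sox9) in the Prog-like lists, 9.02 and 10.3 in the EpCAM-high lists and 3.33 in Tumor Sox9, so it was strictest for the Prog-like lists. A gene-end peak overlaps the window of 1000 bp on either side of either end of a gene, and a locus peak overlaps the gene or the 10 kb on either side. A −log10 q given for a peak is the authors' own value and describes the peak within its list. Values given as a series of 5 follow the order EpCAM-high (CK19, then Sox9), Prog-like (CK19, then Sox9), Tumor Sox9.

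Collagen genes had gene-end peaks less often than protein-coding genes at large, and most often in the EpCAM-high lists. A gene-end peak was present at 17 of the 44 collagen genes in EpCAM-high CK19 (38.6%, 24.4 to 54.5), against 57.8% of all protein-coding genes. In EpCAM-high Sox9 the count was 18 (40.9%, 26.3 to 56.8), against 57.7%. Prog-like CK19 had 10 (22.7%, 11.5 to 37.8), against 57.4%. Prog-like Sox9 and Tumor Sox9 had 6 each (13.6%, 5.17 to 27.4), against 54.4% and 51.1%. The share over all genes differed little between lists, whereas the collagen count ran from 6 to 18. At equal length the collagen counts were 11, 13, 3, 3 and 6, with 53.2%, 51.1%, 48.1%, 45.9% and 51.1% of all genes. Both EpCAM-high counts lay above the other 3 in each of the 7 settings tried. At equal length type IV genes, which lie in pairs that share their start, gave 6 of each EpCAM-high count. They gave 0 of each Prog-like count and 1 of that of Tumor Sox9. Outside type IV, EpCAM-high CK19 and Tumor Sox9 then had the same counts, 1 fibrillar and 4 other genes each. In bulk chromatin, fewer cells of a type and less open chromatin per cell cannot be told apart.

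The 35 collagen genes with a RefSeq start site were also counted at the start alone. A peak within 1 kb of a start site was present at 13 and 14 of them in EpCAM-high CK19 and Sox9 (37.1% and 40.0%, against 59.4% and 59.6% of 17492 genes with a start site). The remaining counts were 6 and 5 in the Prog-like lists and 4 in Tumor Sox9 (17.1%, 14.3% and 11.4%, against 58.0%, 55.3% and 52.8%). At equal length they were 8, 10, 2, 2 and 4 (against 55.1%, 53.2%, 49.2%, 47.3% and 52.8%). The EpCAM-high lists again had the highest counts. At equal length 5 genes in each EpCAM-high list were type IV, against 0 in each Prog-like list and 1 in Tumor Sox9. Fibrillar genes then gave 0, 0, 1, 1 and 1, and other genes 3, 5, 1, 1 and 2.

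**Figure D1:**
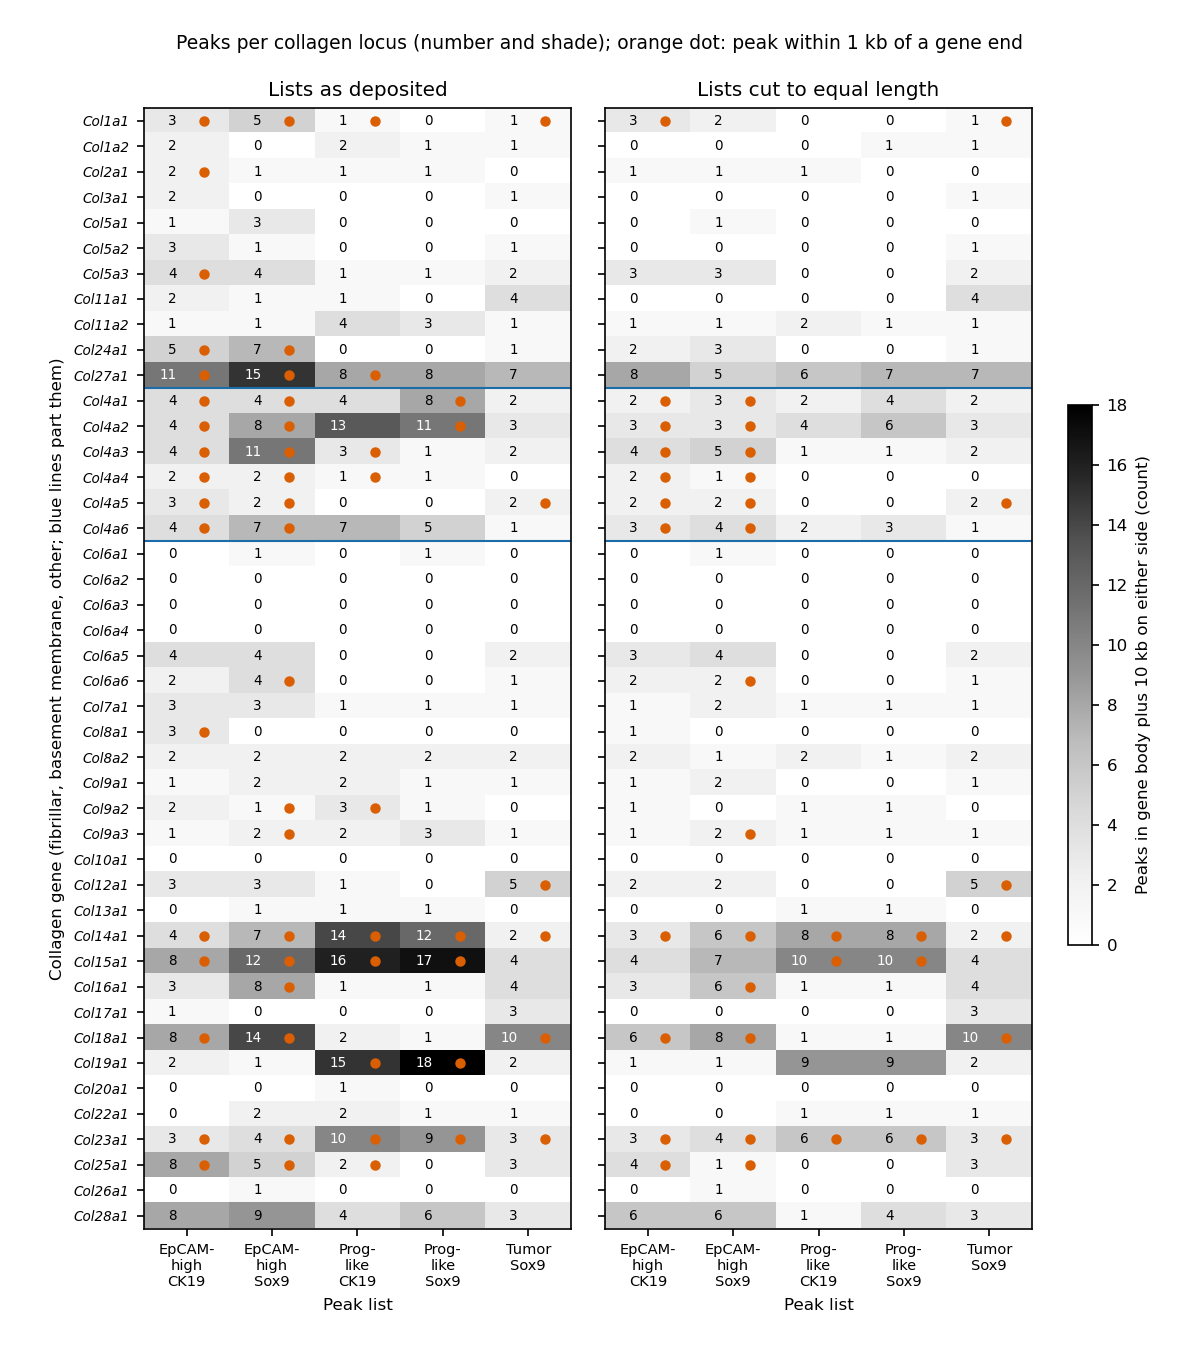
Locus peaks of the 44 collagen genes in each of the 5 lists, as deposited (left) and at equal length (right). Each number and its shade give the count of peaks in the gene plus 10 kb on either side, and an orange dot marks a peak within 1 kb of a gene end. Dots fill the type IV block in both EpCAM-high columns, and Col19a1 reaches 15 and 18 peaks in the Prog-like columns as deposited.

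The classes differed. Each of the 6 type IV genes was open at a gene end in both EpCAM-high lists (lower limit of the share 54.1%), as deposited and at equal length. In each Prog-like list 2 of 6 had one as deposited (33.3%, 4.33 to 77.7) and 0 of 6 at equal length (upper limit 45.9%), and in Tumor Sox9 1 of 6 had one (16.7%, 0.421 to 64.1). The 6 type IV genes lie in 3 pairs that share their start, so they are fewer than 6 independent observations and these intervals are too narrow. Col4a6 was counted in EpCAM-high Sox9, and at equal length in EpCAM-high CK19, through the peak at the start of Col4a5, and with at least 50% of a peak inside the window EpCAM-high Sox9 had 5 type IV genes. Of the 11 fibrillar genes, 5, 3, 2, 0 and 1 had a gene-end peak, where the 0 of Prog-like Sox9 allows a share of up to 28.5%. At equal length the fibrillar counts were 1, 0, 0, 0 and 1. These counts leave out Prog-like peaks at the listed start site of Col27a1, which lies inside the annotated gene. At start sites alone, 3, 2, 1, 1 and 1 of 8 fibrillar genes had a peak as deposited. At equal length these were 0, 0, 1, 1 and 1, so the EpCAM-high lists then had the lowest fibrillar counts. Of the 27 other genes, 6, 9, 6, 4 and 4 had one as deposited, and 4, 7, 3, 3 and 4 at equal length.

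**Figure D2:**
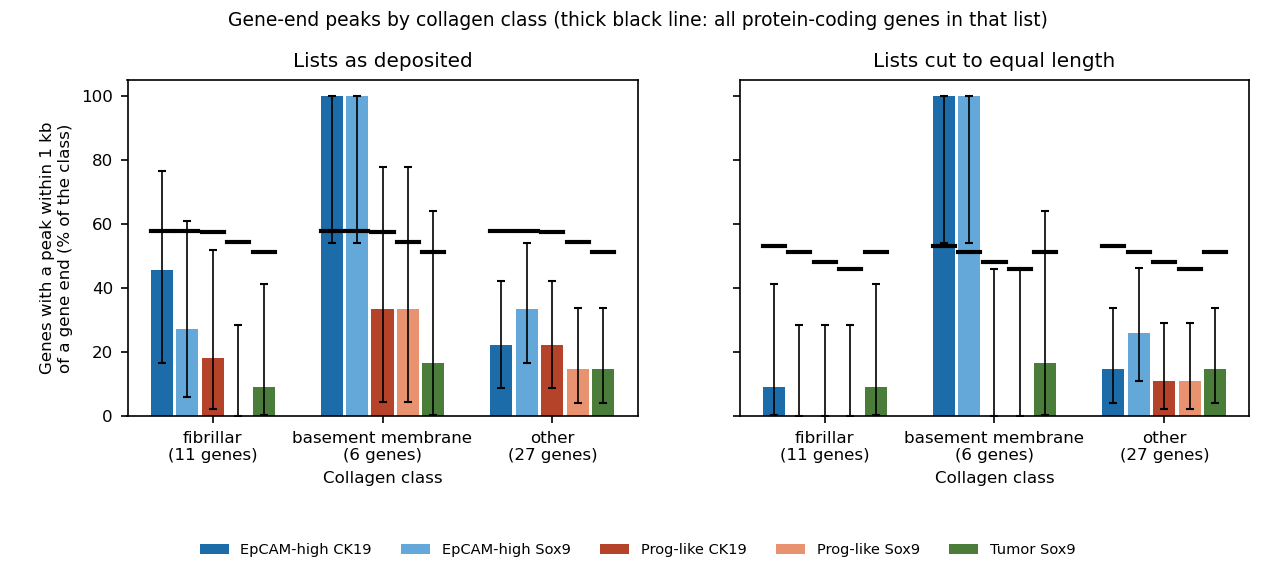
Share of the genes of each collagen class with a peak within 1 kb of a gene end, for the 5 lists as deposited (left) and at equal length (right). Bars give the share, error bars the exact 95% interval (counting error only), and black lines the share of all protein-coding genes in the same list. The basement membrane bars reach 6 of 6 genes in both EpCAM-high lists, above the black line, and the other classes lie below it there.

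Among the 44 genes, 21 had no gene-end peak in any list (32.4% of all protein-coding genes had none). These were 6 of the 11 fibrillar genes (Col1a2, Col3a1, Col5a1, Col5a2, Col11a1 and Col11a2), 0 of the 6 type IV genes and 15 of the 27 others. Col14a1 and Col23a1 were the 2 collagen genes with a gene-end peak in all 5 lists, where 44.2% of all genes had one. No locus peak was found in any list at Col6a2, Col6a3 and Col6a4, chains of the beaded filaments of type VI collagen, or at Col10a1, the collagen of growth plate cartilage.

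The type IV genes stand head to head: Col4a1 and Col4a2 on chromosome 8 overlap by 85 bp at their starts, Col4a3 and Col4a4 on chromosome 1 overlap by 114 bp, and Col4a5 and Col4a6 on the X chromosome are 1274 bp apart. Col4a1 and Col4a2 make the chains found in nearly every basement membrane. The other 4 genes make the chains of more specialised ones, such as that of the kidney glomerulus.

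The strongest of these starts was that of Col4a3 and Col4a4. Its peak had a −log10 q of 93.4 in EpCAM-high CK19 (chr1:82586377-82587632, in the top 6.36% of that list) and 77.8 in EpCAM-high Sox9 (chr1:82586445-82587562, top 5.23%). Prog-like CK19 had a weak peak there (chr1:82586796-82587084, −log10 q 3.4), 95.6% of the way down its list, and Prog-like Sox9 and Tumor Sox9 had none. Both EpCAM-high lists were thus high at this start, and the other 3 were low or had no peak. The Col4a3 locus also held a peak in all 5 lists in its flank (−log10 q 39.8 in Tumor Sox9 to 285.2 in Prog-like CK19), which lies in or within 1 kb of the neighbouring gene Mff.

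At the start of Col4a1 and Col4a2, EpCAM-high CK19 had 2 peaks (−log10 q 15.3 and 6.9) and EpCAM-high Sox9 had 1 (chr8:11312221-11313942, 17.8). Prog-like Sox9 had a weak peak (5.2, 90.0% of the way down its list), and Prog-like CK19 and Tumor Sox9 had none. The genes themselves held Prog-like peaks away from the start: the Col4a1 locus had 4, 4, 4, 8 and 2 peaks and the Col4a2 locus 4, 8, 13, 11 and 3. Inside Col4a2 the strongest Prog-like CK19 peak (chr8:11340371-11341773, −log10 q 154.9) overlapped a Prog-like Sox9 peak (74.7) and EpCAM-high peaks of 72.8 (CK19) and 29.0 (Sox9). Inside Col4a1 the Prog-like peaks at chr8:11249578-11250526 (CK19, 155.2) and chr8:11249627-11250487 (Sox9, 77.4) overlapped a weak EpCAM-high Sox9 peak (3.2) and none of EpCAM-high CK19. The strongest Prog-like peaks in the flank of Col4a2 lay in or within 1 kb of Rab20 (168.3 in CK19 and 98.7 in Sox9). At equal length the Col4a2 counts were 3, 3, 4, 6 and 3, so the lists lay closer together.

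Col4a5 and Col4a6 separated the EpCAM-high from the Prog-like lists at both lengths. The stretch upstream of each gene is shown because an EpCAM-high peak overlapped it. It is given 5′ to 3′ on the strand of the gene and ends at the base before the annotated gene, and capitals mark the motif CCAAT (on the other strand ATTGG). The letters are from RefSeq, GRCm38.p6.
Col4a5 upstream (chrX:141475169-141475369, plus strand): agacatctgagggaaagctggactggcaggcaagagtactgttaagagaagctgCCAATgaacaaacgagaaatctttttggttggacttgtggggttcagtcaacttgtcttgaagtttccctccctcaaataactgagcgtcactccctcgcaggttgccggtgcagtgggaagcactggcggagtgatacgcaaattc
Col4a6 upstream (chrX:141474096-141474326, minus strand): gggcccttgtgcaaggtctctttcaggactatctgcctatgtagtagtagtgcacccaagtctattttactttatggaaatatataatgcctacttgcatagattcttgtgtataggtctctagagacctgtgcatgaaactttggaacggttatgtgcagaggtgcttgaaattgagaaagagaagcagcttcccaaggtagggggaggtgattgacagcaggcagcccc
The Col4a5 stretch lay wholly inside the EpCAM-high CK19 peak at chrX:141475050-141476224 (−log10 q 23.5) and the EpCAM-high Sox9 peak at chrX:141475053-141475773 (17.1). A Tumor Sox9 peak (chrX:141475285-141475777, 4.3) covered part of it. The nearest Prog-like peaks lay 225414 bp (CK19) and 225478 bp (Sox9) from the Col4a5 start site. The Col4a6 stretch, which held no motif searched, was partly covered by a second EpCAM-high CK19 peak (chrX:141473651-141474285, 6.2) that was not kept at equal length. Both printed stretches are shortened from windows of 250 bp. The full window of each gene held 1 copy of another motif searched, GGGCGG, which the printed part does not show. CCAAT was found in 34.2% of the 38 collagen upstream windows of 250 bp and in 35.4% of the 21263 windows of all protein-coding genes.

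Col4a6 was accessible at different places in different lists. Of the 15 merged regions at its locus, 8 held an EpCAM-high peak, 7 a Prog-like peak, and 0 both. The strongest EpCAM-high peaks were at chrX:141363307-141363783 (−log10 q 60.2 in CK19, with 84.0 at the overlapping Sox9 peak) and chrX:141439300-141440120 (92.8, with 73.2). The strongest Prog-like peaks were farther from the start, at chrX:141228170-141228636 (58.1 in CK19) and chrX:141228165-141228636 (32.9 in Sox9). Of the 7 Prog-like regions 5 were found in both Prog-like lists, and 1 of these lay by the neighbouring gene Atg4a. EpCAM-high Sox9 also had 4 weaker peaks of its own (3.2 to 8.7), 1 of them among the Prog-like ones. Col4a5 had 3, 2, 0, 0 and 2 locus peaks, of which a peak inside the gene was shared by both EpCAM-high lists (63.3 and 32.7) and Tumor Sox9 (9.8).

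**Figure D3:**
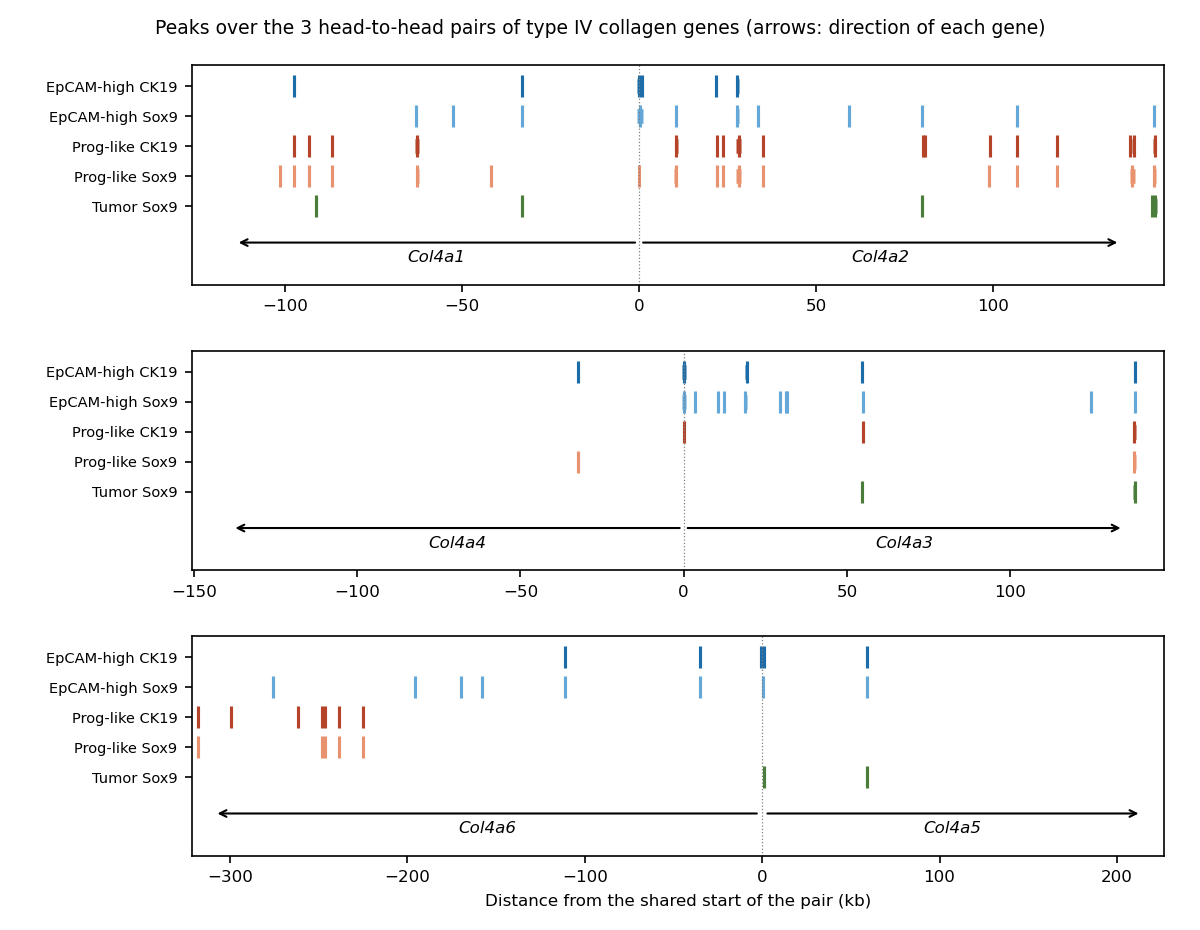
Peaks of the 5 lists over the 3 head-to-head pairs of type IV genes, against distance in kb from the shared start; arrows give the direction and length of each gene, and each coloured mark is 1 peak. Both EpCAM-high lists have a peak at or next to distance 0 in each pair, and over Col4a6 no Prog-like mark lies within 225414 bp of the Col4a5 start.

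Type I and type III collagen, the main fibrillar collagens of liver scar, had few peaks. Col1a1 (chr11:94936224-94953042) encodes the alpha1 chain of type I. It had a gene-end peak at its lower-coordinate end in 4 lists, with −log10 q 11.7 in EpCAM-high CK19, 4.9 in EpCAM-high Sox9, 13.9 in Prog-like CK19 and 9.8 in Tumor Sox9; its strand is not in the tables used here. Prog-like Sox9 had no Col1a1 locus peak, and its nearest peak lay 25950 bp away. The summits of both EpCAM-high peaks were at the same base (94937205), and those of Prog-like CK19 (94937157) and Tumor Sox9 (94937642) were not. Both EpCAM-high lists also had a peak in each flank of Col1a1, near chr11:94928822-94929106 (13.6 in CK19 and 15.2 in Sox9) and chr11:94958136-94958661 (15.4 and 10), where no other list had one. At equal length the Col1a1 gene-end peak was kept in EpCAM-high CK19 and Tumor Sox9.

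Col1a2, whose product joins that of Col1a1 in type I collagen, and Col3a1, the type III chain, had no gene-end peak in any list. Their upstream windows are shown for comparison with that of Col4a5, from RefSeq, GRCm38.p6. Capitals mark the motifs CCAAT and GGGCGG in Col1a2 and TATAAA and GGAATG in Col3a1, searched on both strands.
Col1a2 upstream (chr6:4505368-4505617, plus strand): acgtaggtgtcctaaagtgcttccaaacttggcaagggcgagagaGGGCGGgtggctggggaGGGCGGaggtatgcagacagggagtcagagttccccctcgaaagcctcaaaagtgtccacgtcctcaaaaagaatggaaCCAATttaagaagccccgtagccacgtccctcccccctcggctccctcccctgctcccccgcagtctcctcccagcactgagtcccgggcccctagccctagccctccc
Col3a1 upstream (chr1:45311288-45311537, plus strand): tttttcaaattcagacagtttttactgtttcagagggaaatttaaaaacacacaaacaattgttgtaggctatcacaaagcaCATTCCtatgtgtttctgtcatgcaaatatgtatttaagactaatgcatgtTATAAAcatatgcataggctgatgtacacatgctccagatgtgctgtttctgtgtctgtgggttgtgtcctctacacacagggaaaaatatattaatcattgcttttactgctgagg
The Col1a2 window held 1 CCAAT and 2 GGGCGG, and the nearest peak to its start site lay 39026 bp (Prog-like CK19) to 52193 bp (EpCAM-high Sox9) away. Col1a2 had 2, 0, 2, 1 and 1 locus peaks, all beyond its far end. The Col3a1 window held 1 TATAAA and 1 GGAATG, and the nearest peak to its start site lay 2394 bp away in Tumor Sox9 and 28412 to 120495 bp away in the other lists. Col3a1 had 2, 0, 0, 0 and 1 locus peaks, with a −log10 q of 3.2 for both peaks of EpCAM-high CK19 and 8.6 for that of Tumor Sox9. GGGCGG was found in 57.9% of collagen windows and 42.6% of all windows, TATAAA in 13.2% and 11.6%, GGAATG in 10.5% and 11.7%, and TGANTCA in 2.63% and 6.13%.

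The minor fibrillar genes varied more. Col27a1 had the most locus peaks of the class, 11, 15, 8, 8 and 7, and 8, 5, 6, 7 and 7 at equal length. Its listed start site lies inside the annotated gene and had a peak within 1 kb in all 5 lists, the strongest with a −log10 q of 60.8 (CK19) and 45.6 (Sox9) in the Prog-like lists. Shortening the lists to equal length kept the peak at this start in the Prog-like and Tumor lists and in neither EpCAM-high list. Col24a1 had 5, 7, 0, 0 and 1 locus peaks, with a start-site peak in both EpCAM-high lists as deposited (6.3 and 4.9) and in neither at equal length. Col5a3, a chain of type V collagen, which regulates fibril width, had 4, 4, 1, 1 and 2 locus peaks, and 3, 3, 0, 0 and 2 at equal length.

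Tumor Sox9 stood apart at other members of this class. A peak in Col5a2, another type V chain, had a −log10 q of 23.5 in Tumor Sox9 (chr1:45432036-45432283, top 14.6% of its list), and overlapping peaks in EpCAM-high CK19 and Sox9 had 3.8 and 7.7. Col11a1, a cartilage collagen chain, had 2, 1, 1, 0 and 4 locus peaks, and at equal length 4 in Tumor Sox9 and 0 in the other lists, with −log10 q of 1.9 to 4.9. The equal-length step left out no Tumor Sox9 peak, so weak peaks were kept there and not in the other lists. Col2a1, the main cartilage collagen, had a peak inside the gene in EpCAM-high CK19 (34.7), EpCAM-high Sox9 (34.8) and both Prog-like lists (33.5 and 13.3).

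Col18a1 and Col15a1 encode the collagens that carry an endostatin domain and lie at basement membranes. Col18a1 had 8, 14, 2, 1 and 10 locus peaks, and 6, 8, 1, 1 and 10 at equal length, so EpCAM-high and Tumor were high and Prog-like low. RefSeq lists 2 start sites on the minus strand, and the 250 bp upstream of each is shown because the lists differed between them. Capitals mark CCAAT and GGGCGG (outer) and GGAATG (inner) on either strand, and the letters are from RefSeq, GRCm38.p6.
Col18a1 upstream of the outer start (chr10:77166531-77166780, minus strand): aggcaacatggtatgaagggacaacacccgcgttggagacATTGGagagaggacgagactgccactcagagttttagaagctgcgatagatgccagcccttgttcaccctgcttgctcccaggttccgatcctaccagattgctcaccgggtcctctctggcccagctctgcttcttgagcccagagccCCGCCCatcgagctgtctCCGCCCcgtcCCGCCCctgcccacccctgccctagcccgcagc
Col18a1 upstream of the inner start (chr10:77113706-77113955, minus strand): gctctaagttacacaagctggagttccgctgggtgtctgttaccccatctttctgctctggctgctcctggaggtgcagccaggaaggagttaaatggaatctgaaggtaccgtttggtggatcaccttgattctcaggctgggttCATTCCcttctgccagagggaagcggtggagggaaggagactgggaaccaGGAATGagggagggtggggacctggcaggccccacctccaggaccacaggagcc
The outer start had a peak in EpCAM-high CK19 (−log10 q 10), EpCAM-high Sox9 (11.9) and, weaker, Tumor Sox9 (2.7), whose peak did not reach the printed window. The inner start, inside the gene, had a peak within 1 kb in Tumor Sox9 alone (chr10:77113743-77114120, 6.6), and that peak overlapped the printed window. Longer forms of the protein made from the inner start are known from hepatocytes. The 8 hepatocyte markers had 21, 27, 10, 8 and 32 locus peaks in sum, and 16, 14, 4, 2 and 32 at equal length. A gene-end peak was present at 5, 7, 1, 1 and 8 of them (62.5%, 87.5%, 12.5%, 12.5% and 100%). The shares over all genes were 57.8%, 57.7%, 57.4%, 54.4% and 51.1%. At equal length the counts were 4, 5, 1, 0 and 8 (against 53.2%, 51.1%, 48.1%, 45.9% and 51.1%). The part of these markers in the Col18a1 result was not tested. The strongest Prog-like peak of Col18a1 (chr10:77130514-77131012, 54.2 in Sox9, with 31.5 in CK19) overlapped peaks of EpCAM-high Sox9 (21.8) and Tumor Sox9 (4.2).

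Col15a1 had 8, 12, 16, 17 and 4 locus peaks, and 4, 7, 10, 10 and 4 at equal length, so here the Prog-like lists were high. The EpCAM-high lists had a peak within 1 kb of its start (−log10 q 5.2 and 6.8), which the other 3 lists did not have and which was not kept at equal length. The Prog-like lists had a peak within 1 kb of its far end (66.8 and 33.1), where EpCAM-high Sox9 had a weaker one (6.2). Beyond it lay a stronger Prog-like peak (chr4:47315336-47316009, 251.9 and top 2.99% in CK19, with 137.3 in Sox9) that no other list had. Inside the gene the EpCAM-high lists had their strongest CK19 peak at chr4:47310632-47311298 (92.9, with 65.3 in Sox9). Of the 27 merged regions of the locus, 13 held an EpCAM-high peak, 18 a Prog-like peak and 5 both.

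Fibril-associated collagens bridge fibrils to the surrounding matrix. Col19a1 had 2, 1, 15, 18 and 2 locus peaks, and 1, 1, 9, 9 and 2 at equal length, so both Prog-like lists stood above the others. Its start site had a peak in Prog-like CK19 (−log10 q 17.3) and Prog-like Sox9 (7.7) and in no other list, and neither peak was kept at equal length. The strongest peaks lay inside the gene (183.4 in CK19 and 148.4 in Sox9). Of its 20 merged regions, 17 held Prog-like peaks and no others.

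Col14a1 had 4, 7, 14, 12 and 2 locus peaks, and 3, 6, 8, 8 and 2 at equal length. A gene-end peak lay at its lower-coordinate end in all 5 lists, with a −log10 q from 1.7 in Tumor Sox9 to 35.4 in Prog-like CK19. Its strongest Prog-like peaks lay inside the gene and were found in both Prog-like lists: chr15:55381320-55382162 had 225.7 in CK19 (164.3 in Sox9), and chr15:55379998-55380354 had 181.9 in Sox9 (176.5 in CK19). EpCAM-high Sox9 had a peak at the second position (36.7).

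Col12a1, another fibril-associated collagen, held the collagen locus peak that ranked highest within its list. It was a Tumor Sox9 peak inside the gene (chr9:79609970-79610870, −log10 q 90.3), in the top 0.159% of that list. EpCAM-high Sox9 had an overlapping peak of 29.9 (top 23%), and the other 3 lists had none there. Col12a1 had 3, 3, 1, 0 and 5 locus peaks, and a gene-end peak, at the lower-coordinate end, in Tumor Sox9 alone (6.4). Col16a1 and Col9a3, also of this family, were open at a gene end in EpCAM-high Sox9 and in no other list (8.9 and 9.7). Col16a1 had 3, 8, 1, 1 and 4 locus peaks.

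Of the type VI chains, Col6a6 had a start-site peak in EpCAM-high Sox9 alone (−log10 q 9.2), with 2, 4, 0, 0 and 1 locus peaks. Col6a5 had no gene-end peak but 4, 4, 0, 0 and 2 locus peaks. The 4 Col6a5 regions were found in both EpCAM-high lists, with −log10 q of 5.5 to 18.4 in CK19 and 8.7 to 16.6 in Sox9, and 2 of them in Tumor Sox9 (19.4 and 9.8). Neither gene had a locus peak in a Prog-like list.

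Transmembrane collagens also differed among themselves. Col23a1 had a start-site peak in all 5 lists (−log10 q 25.9, 27.4, 53.4, 59.7 and 13.9) and 3, 4, 10, 9 and 3 locus peaks, 1 of them in each list also within 1 kb of an end of the gene Phykpl. Col25a1 had a start-site peak in EpCAM-high CK19 (43.2) and Sox9 (22.8), a weak one in Prog-like CK19 (2.4), and none in the other lists. Col17a1, the hemidesmosome collagen of epithelia, had 1, 0, 0, 0 and 3 locus peaks, and at equal length 3 in Tumor Sox9 and 0 in the other lists. The EpCAM-high CK19 peak (−log10 q 3.8), which equal length removed, overlapped a Tumor Sox9 peak (3.5), which was kept because that step cuts no Tumor Sox9 peak. Col28a1, placed in no family here, had no gene-end peak but 8, 9, 4, 6 and 3 locus peaks. They included EpCAM-high CK19 peaks of 111.9 and 105.9 inside the gene (top 4.4% and 4.88%), with 49.7 and 46.1 at the overlapping peaks of EpCAM-high Sox9.

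**Figure D4:**
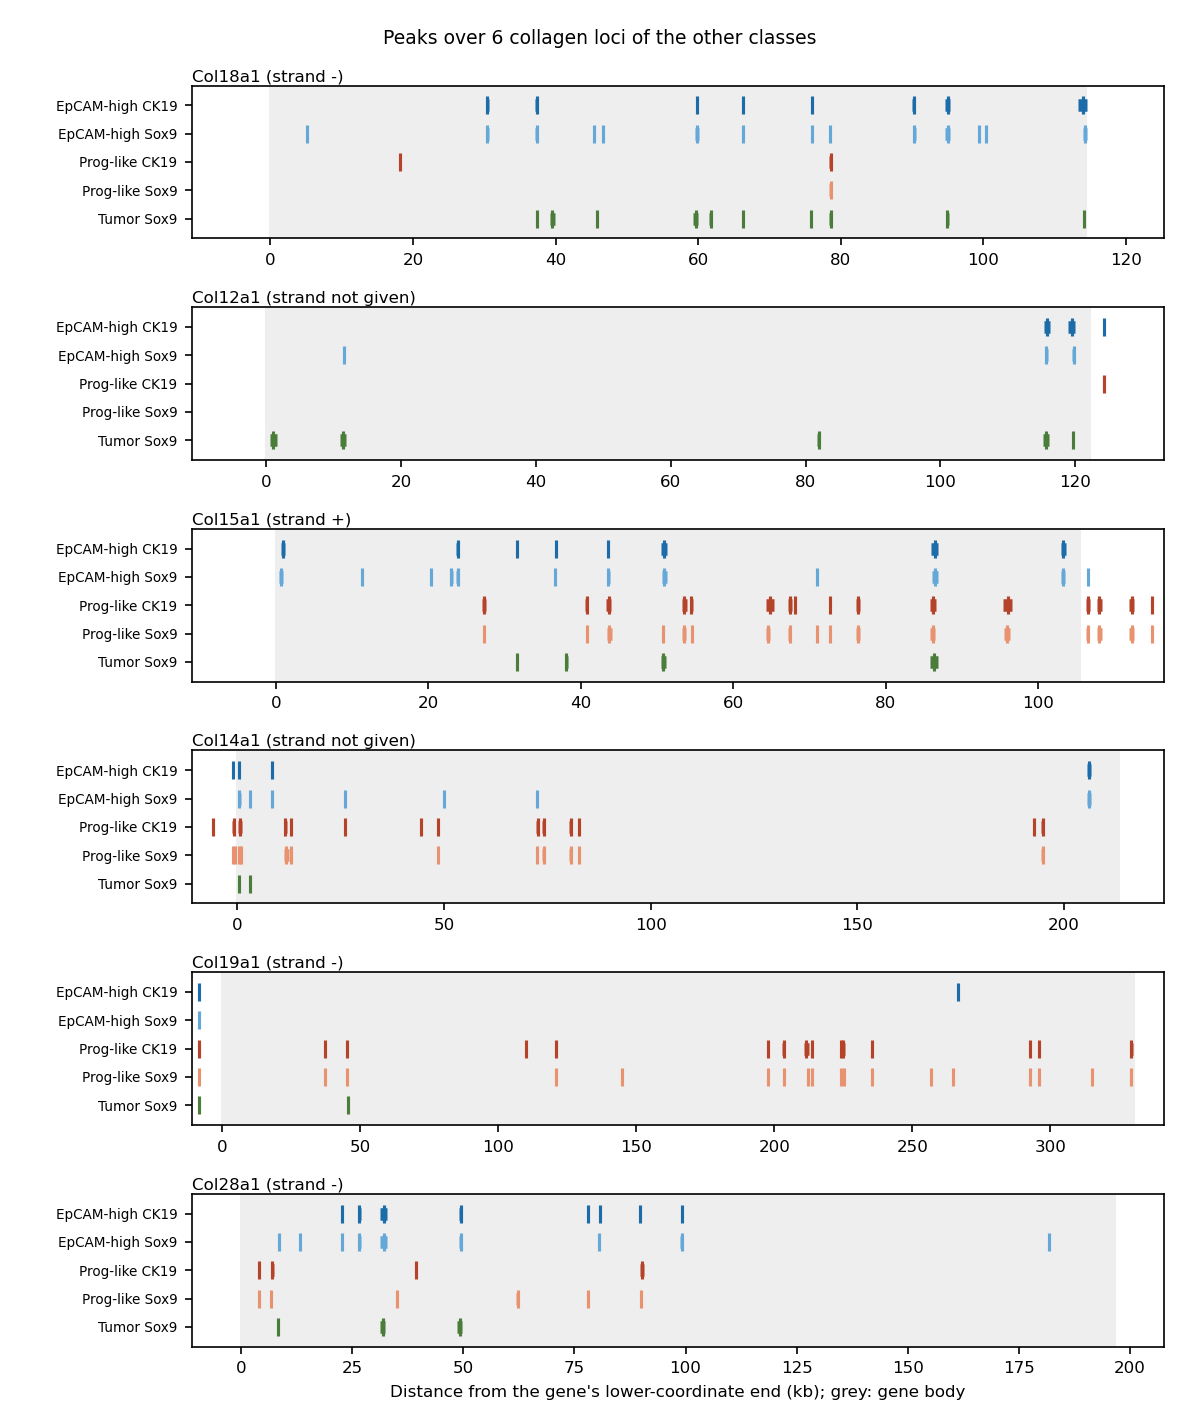
Peaks of the 5 lists over Col18a1, Col12a1, Col15a1, Col14a1, Col19a1 and Col28a1, against distance in kb from the lower-coordinate end; the gene is drawn as a bar and each coloured mark is 1 peak. Col18a1 has 10 marks in Tumor Sox9 and 2 and 1 in the Prog-like lists, whereas Col19a1 has 15 and 18 in the Prog-like lists.

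For 6 pairs of lists, which share lists and are not independent, the genes open at a gene end in one list but not its partner were counted. EpCAM-high CK19 had 9 collagen genes that Prog-like CK19 lacked (20.5%, against 6.94% of all genes), and 2 were found the other way (4.55%, against 6.5%). At equal length the counts were 9 (against 10.1%) and 1 (against 4.94%), and Col4a1, Col4a2, Col4a5, Col4a6 and Col18a1 were among the 9 at both lengths. EpCAM-high Sox9 had 13 that Prog-like Sox9 lacked (29.5%, against 8.98%), and 1 was found the other way (2.27%, against 5.67%). At equal length these were 11 (against 10.2%) and 1 (against 4.95%), and Col4a3 to Col4a6, Col6a6, Col9a3, Col16a1, Col18a1 and Col25a1 were found at both lengths. Col27a1 was among the 13 as deposited, through EpCAM-high Sox9 peaks of −log10 q 5.7 and 1.7 at the annotated gene end. At its listed start site, inside the gene, Prog-like Sox9 had a stronger peak (45.6). The gene found the other way in both pairs was Col19a1 as deposited and Col15a1 at equal length. Type IV genes and Col18a1 thus recurred on the EpCAM-high side. Type IV genes made up 4 of the 9 CK19 genes as deposited and 6 of the 9 at equal length. In Sox9 they made up 4 of the 13 and 6 of the 11. As type IV genes lie in pairs that share their start, these counts hold fewer separate starts than genes.

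EpCAM-high Sox9 had 13 collagen genes that Tumor Sox9 lacked (29.5%, against 9.17% of all genes), and 9 at equal length (20.5%, against 5.77%). The 9, found at both lengths, were Col4a1 to Col4a4, Col4a6, Col6a6, Col9a3, Col16a1 and Col25a1. Of these, 5 are type IV genes, which are not independent because they lie in pairs that share their start. Col27a1 was among the 13, although Tumor Sox9 had a peak (−log10 q 6.9) at its listed start site inside the gene. Tumor Sox9 had Col12a1 that EpCAM-high Sox9 lacked (1 gene, 2.27%, against 2.57%), and Col1a1 and Col12a1 at equal length (4.55%, against 5.79%). Against Prog-like Sox9, Tumor Sox9 had the same 4 genes at both lengths, Col1a1, Col4a5, Col12a1 and Col18a1 (9.09%, against 5.4% as deposited and 10.1% at equal length). Prog-like Sox9 had 4 that Tumor Sox9 lacked (9.09%, against 8.69%), and Col15a1 alone at equal length (2.27%, against 4.85%). The shares between Tumor and Prog-like were near those of all genes.

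The CK19 and Sox9 lists of one cell name were compared in the same way, and as deposited the collagen shares lay above those of all genes. Prog-like CK19 had 6 that Prog-like Sox9 lacked (13.6%, against 3.68%) and 2 were found the other way (4.55%, against 0.704%), and at equal length both counts were 0 (against 2.9% and 0.722%). Col27a1 was among the 6, although both Prog-like lists had a peak at its listed start site inside the gene (−log10 q 60.8 and 45.6). EpCAM-high CK19 had 3 that EpCAM-high Sox9 lacked (6.82%, against 2.99%) and 1 at equal length (2.27%, against 4.08%). EpCAM-high Sox9 had 4 that EpCAM-high CK19 lacked (9.09%, against 2.87%) and 3 at equal length (6.82%, against 1.98%). Col6a6, Col9a3 and Col16a1 were found at both lengths in this last comparison.

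Collagen genes are long, with a median of 114.0 kb (17.2 kb over protein-coding genes at large), so locus peaks were also counted per 100 kb of locus. Collagen loci held 1.95, 2.5, 1.98, 1.82 and 1.22 peaks per 100 kb, against 3.17, 3.52, 4.45, 4.18 and 2.46 over all genes. Those genes were not matched to the collagens in length, and the part of length in this gap was not tested. Fibrillar loci held 2.84, 3.0, 1.42, 1.11 and 1.5, type IV loci 1.8, 2.91, 2.4, 2.23 and 0.857, and other loci 1.7, 2.21, 2.03, 1.93 and 1.23. At equal length fibrillar loci held 1.42, 1.26, 0.711, 0.711 and 1.5, type IV loci 1.37, 1.54, 0.771, 1.2 and 0.857, and other loci 1.13, 1.44, 1.11, 1.16 and 1.23, against 2.5, 2.48, 2.62, 2.56 and 2.46 over all genes. Fibrillar loci were denser in both EpCAM-high lists than in both Prog-like lists at both lengths. In type IV loci as deposited EpCAM-high CK19 lay below and EpCAM-high Sox9 above both Prog-like lists, and at equal length both EpCAM-high lists lay above them.

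Overlapping peaks of the 5 lists were merged into regions, 294 at collagen loci and 87466 at all protein-coding loci. Regions with a peak in either EpCAM-high list and in no other kind of list made up 36.1% (30.6 to 41.8) of collagen regions, against 23.9% of all regions. Regions of the Prog-like lists alone made up 30.3% (25.1 to 35.9), against 39.0%. Regions found in all 5 lists made up 4.76% (2.63 to 7.86), against 13.7%. Collagen loci thus had a larger share of regions that belonged to the EpCAM-high lists and a smaller share common to all lists. The loci compared were not matched for gene length (median 114.0 kb for collagens, 17.2 kb for all genes). The part of gene length in these shares was not tested. At equal length, with 186 collagen regions, these shares were 30.1% (23.6 to 37.2) for EpCAM-high alone, against 21.9% of all regions, and 4.84% (2.24 to 8.99) for all 5 lists, against 16.2%. The share of Prog-like alone was then 26.3% (20.2 to 33.3), against 29.3%, so its interval held the share of all regions. As deposited, regions in EpCAM-high and Tumor without Prog-like made up 10.9% (7.56 to 15), against 6.93%. Those of Tumor alone made up 6.46%, against 6.47%, and those in EpCAM-high and Prog-like without Tumor 8.5%, against 6.69%. At equal length these shares were 16.1% (11.2 to 22.2), 16.1% and 3.23%, against 11.4%, 13.2% and 3.92%. The first interval then held the share of all regions, and the last share lay below it. In fibrillar loci as deposited the EpCAM-high share was 52.2% (39.7 to 64.6) and the Prog-like share 16.4% (8.49 to 27.5). In type IV loci they were 34.6% and 32.7%, and in other loci 30.3% and 34.9%. The fibrillar shares at equal length were 30.8% (17 to 47.6) and 17.9%, those of type IV 30% and 33.3%, and those of other loci 29.9% and 27.4%, so the EpCAM-high shares of the classes then lay close together.

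**Figure D5:**
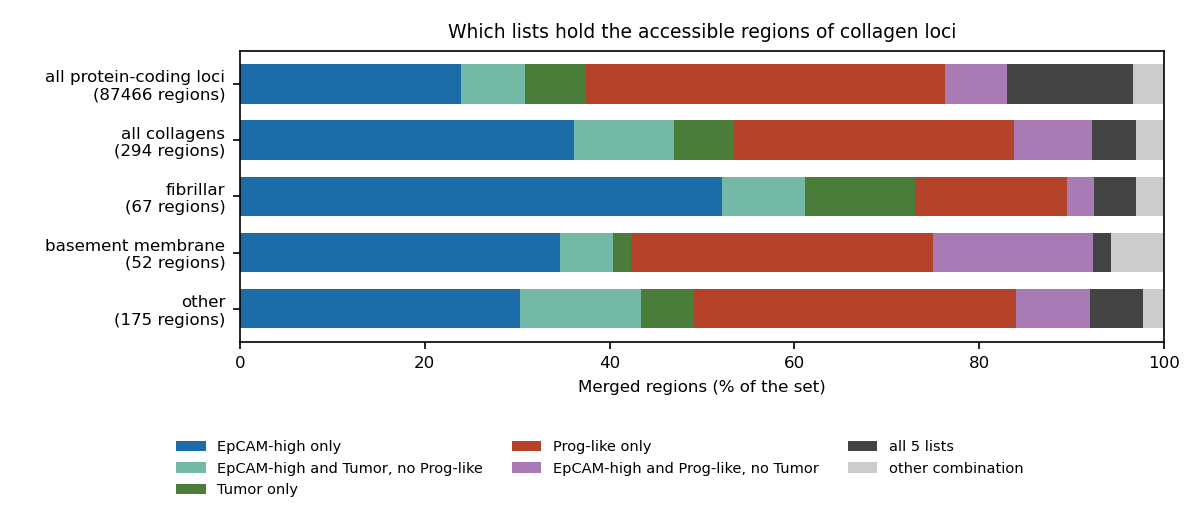
Merged accessible regions at all protein-coding loci, at all collagen loci and at the 3 collagen classes, as the percentage found in each combination of the lists as deposited. Regions found in all 5 lists are 13.7% for all loci and 4.76% for collagens, and the fibrillar bar has the widest EpCAM-high segment of the bars shown, 52.2%.

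Among the lists as deposited, those of the same cell name shared the largest numbers of collagen regions. The Prog-like lists shared 93 regions, 76.2% of those in CK19 and 86.1% of those in Sox9 (all loci, 83.0% and 91.8%). The EpCAM-high lists shared 81, 70.4% of CK19 and 53.6% of Sox9 (all loci, 77.8% and 71.7%). EpCAM-high CK19 and Prog-like CK19 shared 29, 25.2% and 23.8% of their own regions (all loci, 48.2% and 33.7%). Tumor Sox9 was nearer to EpCAM-high than to Prog-like, at collagen loci and over all loci alike. Of its 74 collagen regions it shared 51 with EpCAM-high Sox9 (68.9%, all loci 71.2%) and 19 with Prog-like Sox9 (25.7%, all loci 52.0%). At equal length these were 34 of 75 (45.3%, all loci 61.2%) and 15 (20.0%, all loci 42.6%). The regions found in the Prog-like lists alone were concentrated, with 54 of 89 in Col19a1, Col15a1, Col14a1, Col23a1 and Col4a6. Those of the EpCAM-high lists alone were spread over 33 genes, with 40 of 106 in the 5 genes that held most.

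Genes that work with collagens were counted in the same way, and their shares stand beside those of all protein-coding genes (57.8%, 57.7%, 57.4%, 54.4% and 51.1%, and at equal length 53.2%, 51.1%, 48.1%, 45.9% and 51.1%). Of 32 genes that make and modify collagen chains, 23, 25, 22, 21 and 17 had a gene-end peak (71.9%, 78.1%, 68.8%, 65.6% and 53.1%), and 22, 21, 16, 15 and 17 at equal length (68.8%, 65.6%, 50%, 46.9% and 53.1%). P4ha2, a subunit of the prolyl hydroxylase that stabilises the helix, had one in each list but Tumor Sox9 as deposited and in the EpCAM-high lists at equal length. P3h2, a prolyl 3-hydroxylase of collagen chains, had one in the EpCAM-high and Prog-like lists at both lengths and in Tumor Sox9 at neither. Serpinh1, the collagen chaperone, had one in EpCAM-high Sox9 alone, not kept at equal length. Of 9 genes of collagen breakdown, 4, 4, 6, 6 and 2 had one (44.4%, 44.4%, 66.7%, 66.7% and 22.2%), and 4, 3, 4, 4 and 2 at equal length, so the Prog-like counts were then no higher than that of EpCAM-high CK19. Mmp2, Mmp8 and Mmp13, which cleave collagen or gelatin, had one in both Prog-like lists and in no other, at both lengths, and Mmp8 had 1, 0, 6, 6 and 0 locus peaks. Of the other listed Mmp genes, Mmp14 had one in all 5 lists as deposited and Mmp9 in none. Timp1 and Timp3, inhibitors of these enzymes named after their values were seen, had one in both EpCAM-high lists and in neither Prog-like list at both lengths, and Timp1 also in Tumor Sox9. Timp2, an inhibitor of the same list, had one in each list but Tumor Sox9 as deposited. At equal length Timp2 had one in both EpCAM-high lists and in Prog-like Sox9. Of 10 collagen receptors, 5, 5, 5, 3 and 3 had one, and 3, 4, 3, 3 and 3 at equal length, all shares below those of all genes. Ddr1, a receptor kinase that collagen activates, had one in the EpCAM-high lists alone, which equal length removed. Itga2, a chain of a collagen-binding integrin, had one in each list but Prog-like Sox9 as deposited and in the EpCAM-high and Tumor lists at equal length. Itga10, another such chain, had one in EpCAM-high CK19, EpCAM-high Sox9 and Prog-like CK19 as deposited and in EpCAM-high Sox9 alone at equal length.

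The partners of type IV collagen in the basement membrane, such as laminin chains, were listed separately. A gene-end peak was present at 11, 12, 6, 7 and 6 of 15 (73.3%, 80.0%, 40.0%, 46.7% and 40.0%), and at 10, 11, 4, 4 and 6 at equal length. The intervals as deposited ran from 44.9% to 92.2% and from 51.9% to 95.7% in the EpCAM-high lists and overlapped those of the Prog-like lists (16.3% to 67.7% and 21.3% to 73.4%). Both EpCAM-high shares lay above, and the other 3 below, those of all genes. Lama1 and Lama3, laminin alpha chains, had one in the EpCAM-high lists and in no other as deposited, and at equal length Lama3 kept both and Lama1 that of EpCAM-high Sox9. Lama2, another alpha chain, had one in EpCAM-high Sox9 and Prog-like Sox9, and neither was kept at equal length. Lama3 had 5, 6, 2, 2 and 1 locus peaks.

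Marker genes of liver cell types were counted over the same windows, and the shares of all genes given above are the background here too. Of 8 biliary markers, 8, 8, 4, 2 and 4 had a gene-end peak, and 7, 8, 1, 1 and 4 at equal length, with 48, 50, 15, 16 and 17 locus peaks in sum as deposited. Of 8 macrophage and leukocyte markers, 2, 3, 8, 8 and 1 had one (7, 9, 57, 55 and 6 locus peaks in sum), and 2, 2, 8, 7 and 1 at equal length. Of 6 endothelial markers, 1, 0, 4, 3 and 0 had one (12, 14, 47, 38 and 11), and 0, 0, 2, 2 and 0 at equal length. The biliary counts were highest in EpCAM-high, and the leukocyte and endothelial counts in Prog-like, at both lengths. Of 10 stellate and fibroblast markers, 2, 3, 2, 2 and 1 had one (9, 15, 21, 21 and 2), and 1, 1, 0, 1 and 1 at equal length, all shares below those of all genes. Acta2, the smooth muscle actin of activated stellate cells, had one in EpCAM-high Sox9 and both Prog-like lists as deposited and in Prog-like Sox9 alone at equal length, with 1, 3, 7, 8 and 0 locus peaks. Rgs5, a pericyte gene, had one in EpCAM-high Sox9 alone and Lum, a gene of matrix-producing fibroblasts, in EpCAM-high CK19 alone, and neither was kept at equal length. The other markers named here were chosen after their values were seen. Of the biliary markers, Prom1 (5, 3, 9, 12 and 4 locus peaks) and Epcam (2, 2, 3, 3 and 1) had the most in the Prog-like lists. Cftr (16, 15, 0, 0 and 1) gave more of the EpCAM-high biliary sums than any other marker. Pdgfrb, a receptor of stellate cells, had no gene-end peak but 1, 2, 9, 8 and 0 locus peaks. Des, a filament gene of stellate cells, and Thy1, the sort marker, had 0 locus peaks in all 5 lists, and Dcn, a fibroblast gene, had 2 in EpCAM-high CK19 and 0 in the other lists. The biliary and the type IV gene-end counts were both highest in the EpCAM-high lists. In Tumor Sox9 they differed, with 4 of 8 biliary markers and 1 of 6 type IV genes. The leukocyte and endothelial counts were highest in the Prog-like lists, as were the locus peaks of Col19a1, Col14a1, Col15a1, Mmp2, Mmp8 and Mmp13. These 6 genes are named here because they were high in the Prog-like lists, so that match was fixed by the choice. The stellate and fibroblast markers were mixed. Acta2 and Pdgfrb had the most locus peaks in the Prog-like lists, whereas Rgs5 (1, 7, 0, 1 and 0), Dcn and Lum had the most in an EpCAM-high list. The part of all these markers in the results was not tested.

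The sequence upstream of the start was compared between collagens with and without a start-site peak. The ratio of observed to expected CpG in the 250 bp upstream had a median of 0.438 over 38 collagen start sites, against 0.53 over 21263. It was 0.576 for the 18 with a peak within 1 kb in some list and 0.304 for the 20 with none, against 0.704 and 0.189 for all start sites. Among collagens it ran from 0.0, as at Col3a1 and Col28a1, to 0.896 at Col4a1. Exceptions stood on both sides: the inner Col18a1 start (0.149) and Col24a1 (0.155) had a peak, while Col13a1 (0.812), Col8a2 (0.785) and Col5a1 (0.772) had none.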

How the data were processed

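ATAC-seq peaks of YFP-positive mouse liver cells were analysed from 5 deposited narrowPeak lists. Tools given without roles are deepTools, HOMER, MACS2 and Bowtie 1.1.2, with mm10, per the submitters' processing notes; whether samples were pooled before peak calling, and how reads were shifted or duplicates handled, is not given in the sources used here. In this layout the authors' deposited columns are a score, a fold enrichment (a linear ratio), −log10 p and −log10 q values and a summit offset. These values were used to rank, filter or describe peaks within their own list.

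Gene spans came from the RefSeq table for GRCm38.p6, the assembly of mm10 (21887 protein-coding genes, mitochondrial genes left out). Strand, start sites and sequences came from the RefSeq promoter table, which held 35 of the 44 collagen genes (38 start sites). Printed stretches were shortened where they ran into an annotated gene, except at the inner start of Col18a1, which lies inside its own gene. Exons and introns were not separated, and a planned description of the proteins was not analysed here.

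Peaks were counted with Python 3.11.15, numpy 2.4.6, pandas 2.3.3 and scipy 1.17.1 with an overlap of at least 1 bp, and the counting was tested on simulated data. With 1 list per condition no test was made. Described in full were Col1a1, Col1a2, Col3a1, type IV, genes that differed in a pair of lists at both lengths and the 6 with the widest range of locus peaks. From each other gene list at most 3 examples were named, in the order written, with a gene-end peak in some lists and not in others, and other list genes named were chosen after their values were seen. The members and lists were chosen with earlier results of these data known. Alternatives were lists of equal length, peaks with a −log10 q from 5 up, windows of 2500 bp, 50% of a peak inside, autosomes alone, start ends alone, types VII, XV and XVIII counted with type IV, and loci with no or 50 kb flanks. Merging regions from lists of equal length was added after the data were seen.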

Additional observations from a re-analysis of the deposited data

How the results depend on the processing

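Counts stayed within 1.5 times of those reported in 102 of 140 recounts, but this figure pools settings of unlike force. Larger moves were seen in 13 of 25 recounts at equal list length and 9 of 25 at a −log10 q of 5 or more. Windows of 2500 bp moved 7 of 20, and 50 kb flanks 5 of 5. With 50% of a peak inside and with autosomes alone, 1 of 25 moved in each. Some recounts could not move: Tumor Sox9 loses no peak at equal length, and autosomes alone leaves out only Col4a5 and Col4a6. At equal list length the gene-end counts became 11 (EpCAM-high CK19), 3 (Prog-like CK19) and 3 (Prog-like Sox9) for all collagens, fibrillar 1 (EpCAM-high CK19), 0 (EpCAM-high Sox9) and 0 (Prog-like CK19), type IV 0 in both Prog-like lists, and other 3 (Prog-like CK19); locus peaks became 73, 86, 61 and 67 in the EpCAM-high and Prog-like lists. With a −log10 q of 5 or more, all collagens became 5 (Prog-like CK19) and 3 (Tumor Sox9), fibrillar 2 and 1 (EpCAM-high CK19 and Sox9) and 1 (Prog-like CK19), type IV 0 (Prog-like CK19) and 0 (Tumor Sox9), other 2 and locus peaks 49 (both Tumor Sox9). With windows of 2500 bp, all collagens became 11 (Prog-like Sox9) and 10 (Tumor Sox9), fibrillar 1 and 3, type IV 2 (Tumor Sox9), and other 10 (EpCAM-high CK19) and 7 (Prog-like Sox9). With 50 kb flanks locus peaks became 208, 265, 238, 226 and 152. Start ends alone gave 6 for all collagens in Prog-like CK19. In Tumor Sox9, 50% of a peak inside gave fibrillar 0, autosomes alone gave type IV 0, and types VII, XV and XVIII counted with type IV gave 2. Regions merged from lists of equal length, an alternative chosen after seeing the data, gave an EpCAM-high share of 30.1% over all collagens and 30.8% over fibrillar loci (36.1% and 52.2% as deposited). Leaving out the flanks moved no total by over 1.5 times. Read depth is unknown, so a missing peak was not detected at the depth of its list and is not shown to be absent. No paired analysis was possible because the lists carry no replicate numbers and no result comes from a test.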
